A study of Mus musculus with 10 samples.

Results

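The genes described here are those for the mouse Fc receptors of IgG and the molecules they signal with, 7 of the 53715 genes counted in each library. They were chosen by name: Fcgr1, Fcgr3 and Fcgr4, the activating Fc gamma receptors, Fcgr2b, the inhibitory one, Fcer1g, the shared signalling chain, Syk, the kinase that it recruits, and Fcgrt, the neonatal Fc receptor. No expression value entered the choice of these genes by the rule, although earlier results of the same data were known. All 7 passed the filter on low counts in every fit, and their lowest count in a compared library was 13, that of Fcgr4 in the striatum library 3 of the second cohort.

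Microglia were isolated from the midbrain (Mdb) and the striatum (Str) of untreated C57BL/6 mice aged 3 months. Animals were perfused, the tissue was digested with papain, debris was removed on Percoll, and CD11b+ cells were collected with magnetic beads, so that CD11b+ cells other than microglia could also enter a library. The study describes such preparations, by flow cytometry, as nearly all microglia with a small share of infiltrating myeloid cells. The poly-A RNA was sequenced in 2 cohorts. The pilot cohort gave 2 midbrain and 2 striatum libraries and the second cohort also gave 2 of each with an undisputed region. All groups share strain, age and the absence of treatment, and they differ only in region and cohort. The study describes male mice, and the labels do not say which libraries came from the same animal, so p-values measure the spread between these libraries, which may be technical in part. A further 2 libraries, titled Mdb 2 and Str 2, carry file names of the opposite region and entered no comparison.

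Fc gamma receptors bind the constant part of IgG and let phagocytes recognise opsonised targets. Fcgr1, Fcgr3 and Fcgr4 need the common gamma chain encoded by Fcer1g, whose ITAM (a tyrosine motif that docks kinases) is phosphorylated by Src-family kinases and then binds Syk, while Fcgr2b carries an inhibitory motif that recruits the phosphatase encoded by Inpp5d. Fcgrt works apart from this cascade: its product pairs with beta-2-microglobulin and returns endocytosed IgG and albumin to the cell surface. In the brain the Fc gamma receptors are expressed mainly by microglia and by macrophages at its borders.

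Total counts of the 8 compared libraries ranged from 575709 to 8463782, with the shallowest and the deepest both from striatum. Defining microglial markers were present in every library, and the summed level of the 14 homeostatic microglial markers lay between 16381 and 29110 CPM (counts scaled to library size, with TMM factors that correct for composition). All 14 were lower in midbrain in the fit over both cohorts, with a median log2 fold change of -0.62. Marker lists of other CD11b+ cells went the other way. The medians were 1.55 for border macrophages (11 of 12 tested genes higher), 2.05 for monocytes (13 of 13) and 2.02 for neutrophils (11 of 12), beside 0.04 over all genes tested. Called at an adjusted p under 0.05 in limma were 6, 3 and 6 genes of these lists, beside 1.06% of all genes. T and NK cell markers were higher too (9 of 9, median 1.83, 1 called). So were genes that respond to tissue dissociation (13 of 14, median 0.61, 2 called). In the second cohort alone 14 of 14 dissociation genes were higher. Of these, 7 passed a different threshold, an unadjusted p under 0.01 in limma, as did 3.47% of all genes. The part of these lists in the results was not tested. In bulk RNA, fewer cells of a type and less RNA per cell cannot be told apart.

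In the GRCm38 annotation 4 of the 7 genes lie close together on mouse chromosome 1. Fcgr2b occupies chr1:170958617-170976547 on the minus strand, Fcgr4 chr1:171018920-171029761 on the plus strand, Fcgr3 chr1:171051174-171064935 on the minus strand and Fcer1g chr1:171229572-171234365 on the minus strand. Fcgr1 lies at chr3:96282909-96293969 on the minus strand, Fcgrt at chr7:45092990-45103851 on the minus strand and Syk at chr13:52583173-52648792 on the plus strand. Reads were counted over exons without strand. Only Fcgr2b shares exon bases with another gene, 155 bases with the opposite-strand Gm38204, which had 0 counts in every library. Fcgr2b and Fcgr3 also hold stretches of equal sequence: of all 50-base words of the longest coding transcript, 12.8% of those of Fcgr3 recur in Fcgr2b and 12.5% of those of Fcgr2b recur in transcripts of Fcgr3 or other genes (Gencode M21, the annotation at hand). In the last 350 bases of either transcript, where a 3′-end protocol places most reads, 0% did.

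Promoter windows from RefSeq (GRCm38.p6, 250 bases before to 50 after the annotated start) were found for all 7 genes. They are shown for the activating receptors because these 3, and none of the other members, hold the 7 letters GAGGAAG or their reverse complement CTTCCTC, the core that myeloid PU.1-type ETS factors are known to prefer, and for Fcgrt as the member that moved against the others between cohorts. Capitals mark the match.
Fcgr1, chr3:96293920-96294219, minus strand: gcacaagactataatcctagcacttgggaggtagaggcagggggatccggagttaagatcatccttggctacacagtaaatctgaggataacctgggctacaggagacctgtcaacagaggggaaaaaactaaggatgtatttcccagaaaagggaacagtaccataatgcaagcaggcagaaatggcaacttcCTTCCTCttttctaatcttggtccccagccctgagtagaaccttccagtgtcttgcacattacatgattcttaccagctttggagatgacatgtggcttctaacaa
Fcgr3, chr1:171059354-171059653, minus strand: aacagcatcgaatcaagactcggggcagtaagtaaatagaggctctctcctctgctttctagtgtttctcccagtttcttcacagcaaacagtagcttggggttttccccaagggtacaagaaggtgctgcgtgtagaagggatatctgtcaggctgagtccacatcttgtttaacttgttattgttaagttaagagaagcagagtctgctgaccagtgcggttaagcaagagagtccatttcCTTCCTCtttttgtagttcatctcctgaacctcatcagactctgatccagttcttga
Fcgr4, chr1:171018676-171018975, plus strand: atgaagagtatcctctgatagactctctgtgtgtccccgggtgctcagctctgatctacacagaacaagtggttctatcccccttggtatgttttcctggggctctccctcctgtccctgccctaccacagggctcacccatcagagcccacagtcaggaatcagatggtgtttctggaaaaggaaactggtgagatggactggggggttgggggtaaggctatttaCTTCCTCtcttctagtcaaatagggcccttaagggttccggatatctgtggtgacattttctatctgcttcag
Fcgrt, chr7:45103773-45104072, minus strand: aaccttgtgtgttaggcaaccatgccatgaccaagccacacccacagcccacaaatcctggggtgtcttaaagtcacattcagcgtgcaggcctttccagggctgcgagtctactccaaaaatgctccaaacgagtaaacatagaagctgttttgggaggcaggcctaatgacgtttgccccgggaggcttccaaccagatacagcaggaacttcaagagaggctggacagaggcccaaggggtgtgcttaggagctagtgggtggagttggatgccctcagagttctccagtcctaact
The match began 56, 7 and 23 bases before the start of Fcgr1, Fcgr3 and Fcgr4 (16 bases before a second annotated start of Fcgr3), on the strand opposite to the gene in each. Of all 27025 genes with a window, 15.4% held these letters on either strand. The interferon-type letters TTCNNNGAA, read on both strands, were found in Fcgr1 alone among the members and in 9.55% of all genes. These matches are a description of the windows and were not related to the levels by a test.

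The ratios and shares of counts given further below are not divided by length. Here the levels of different genes are compared per length, as CPM per kilobase of exon. By this measure Fcer1g was highest, with a mean over the 8 libraries of 1695 CPM per kilobase, followed by Fcgr3 with 1147, Fcgr1 with 166.1, Fcgrt with 89.5, Fcgr2b with 50.8, Fcgr4 with 22.9 and Syk with 16.5. Fcer1g exceeded Fcgr3 and Fcgr2b exceeded Fcgr4 in each of the 8 libraries, though the ranges of both pairs overlapped across libraries. Fcgr3 over Fcgr1 and Fcgr1 over Fcgrt were the steps without any overlap. Fcgrt was above Fcgr2b in 7 of 8 libraries and Fcgr4 above Syk in 6 of 8, so these neighbours did not differ beyond their spread. Since the protocol reads 3′ ends, division by the full exon length lowers long transcripts such as Syk (9362 bases) relative to short ones such as Fcer1g (874 bases). The order depends on this division. Without it Fcgr3 was highest, with a mean of 1991 CPM, above Fcer1g with 1482 CPM. Fcgr2b, with 294.3 CPM, was then above Fcgrt with 188.1 CPM, and Syk, with 154.1 CPM, above Fcgr4 with 28.8 CPM.

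**Figure D1:**
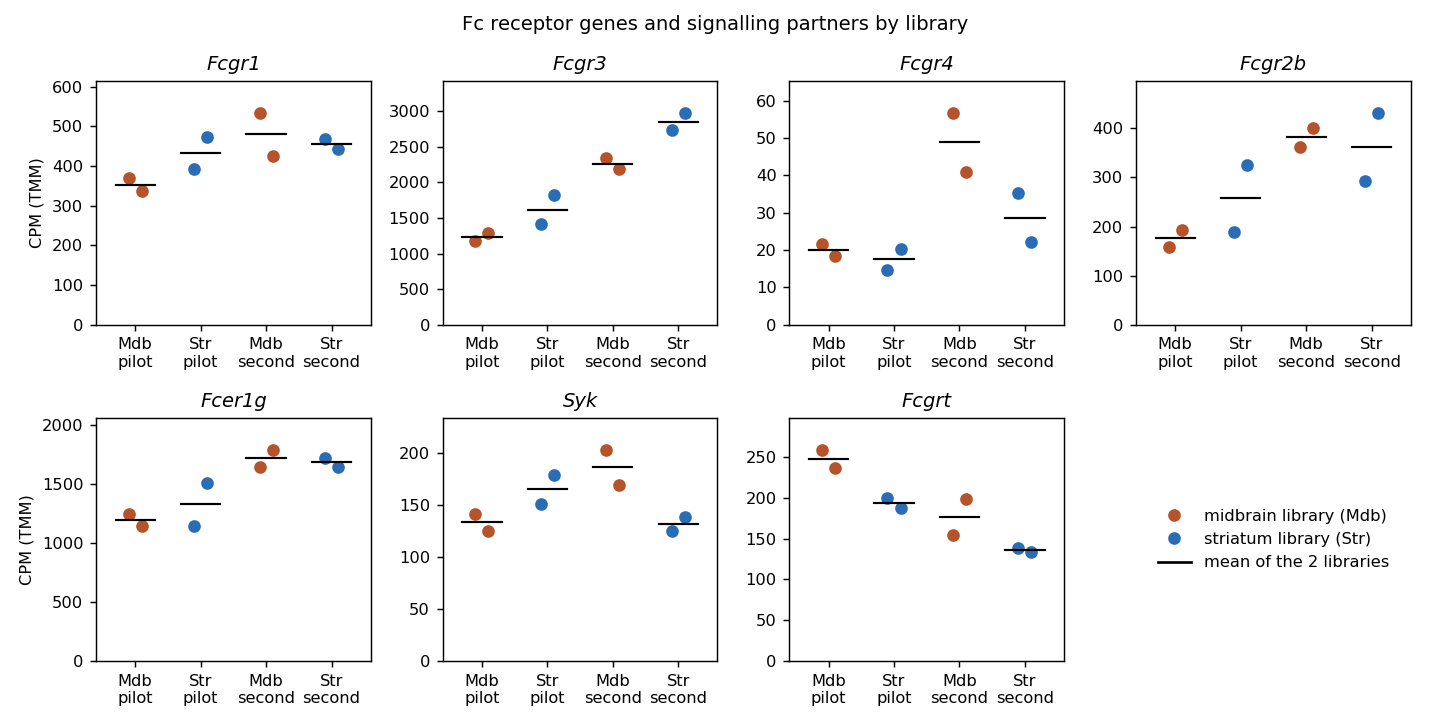
Level of each of the 7 genes in the 8 compared libraries, in CPM with TMM factors on a linear axis that starts at 0. Points are libraries, orange for midbrain and blue for striatum, and bars are means of 2. Fcgr3 is lower and Fcgrt higher in midbrain than in striatum within each cohort, and Fcgr3 is higher in the second cohort (2182 to 2977 CPM) than in the pilot (1177 to 1820 CPM).

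The first comparison asked whether microglia of the midbrain and the striatum differ in these genes. No member passed the test in either cohort or in the joint fit. In voom and limma, 0 of 7 had an unadjusted p under 0.01 in the pilot cohort, where 2.64% of 14972 genes did, and 0 of 7 in the second cohort, where 3.47% of 13486 did. In the joint fit of 8 libraries with cohort as a covariate, 0 of 7 had a Benjamini-Hochberg adjusted p under 0.05, against 1.06% of 14053 genes. edgeR's quasi-likelihood test and DESeq2 also called 0 of 7 in each of the 3 fits. At an unadjusted p under 0.05, voom and limma gave 0 of 7 in the pilot cohort, 0 in the second and 2 in the joint fit (Fcgr3 and Fcgrt), where 14.6% of all genes passed. Leaving out the striatum pilot library 1, which leaves the deepest library as the lone striatum sample of that cohort, gave 5 calls in the pilot cohort (Fcgr1, Fcgr2b, Fcgr3, Fcer1g and Syk, all lower in midbrain), a fit in which 16.8% of all genes passed.

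Among the activating receptors, Fcgr3 was lower in midbrain in both cohorts, though it did not pass the test. Fcgr3 encodes the low-affinity receptor that depends on the gamma chain. Its level was 1177 and 1292 CPM in the midbrain pilot libraries 1 and 2, and 1412 and 1820 CPM in the striatum ones. The second cohort gave 2337 and 2182 CPM in the midbrain libraries 1 and 3, and 2730 and 2977 CPM in the striatum ones. Every compared midbrain library was thus below both compared striatum libraries of its cohort. The unassigned libraries titled Mdb 2 and Str 2 were at 2178 and 2039 CPM, scaled over all 10 libraries. Both values were below those of the second striatum libraries. They were also below those of the second midbrain libraries, 2178 CPM only by a small margin. With either library placed in striatum the regions would overlap in the second cohort, as far as the different scalings can be compared. The joint log2 fold change was -0.36 (SE 0.12, a fold of 0.781), with an unadjusted p of 0.0126 and an adjusted p of 0.201 in limma. An exact two-sided permutation test within cohorts gave p = 0.0556, the smallest that the 36 possible labelings allow. Homeostatic microglial markers were lower in the same midbrain libraries, with summed levels of 16381 to 19143 CPM against 23801 to 29110 CPM in striatum. The part of this in the Fcgr3 difference was not tested.

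Fcgr1, the high-affinity receptor, did not separate the regions. It was at 369.8 and 337.0 CPM in the pilot midbrain libraries and at 392.0 and 472.0 CPM in the pilot striatum libraries. The midbrain libraries of the second cohort were at 534.2 and 426.3 CPM and enclosed the striatum values of 467.3 and 441.9 CPM. Midbrain was lower without overlap in the pilot cohort only, and the joint log2 fold change was -0.12 (SE 0.14, adjusted p = 0.735 in limma, interval -0.42 to 0.18).

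Fcgr4, the receptor for IgG2 subclasses that is typical of monocytes and neutrophils, was the least counted of the 7. It was at 21.67 and 18.34 CPM in the pilot midbrain libraries and at 14.74 and 20.28 CPM in the pilot striatum libraries. In the second cohort both midbrain libraries, at 56.77 and 40.94 CPM, lay above the striatum libraries at 35.16 and 22.26 CPM. The last value rests on 13 counts. The regions overlapped in the pilot cohort, and the joint log2 fold change was 0.36 (SE 0.22, adjusted p = 0.492 in limma). The neutrophil marker list of 14 genes was also higher in midbrain, without overlap in either cohort. Its summed level was 1143 to 1504 CPM in the pilot midbrain and 853.5 to 888.2 CPM in the pilot striatum. In the second cohort it was 4079 to 6730 CPM in midbrain and 940.4 to 1014 CPM in striatum. The second striatum was below the pilot midbrain in this sum. In Fcgr4 it was above, by a small margin (lowest second striatum value 22.26 CPM, highest pilot midbrain value 21.67 CPM). S100a9, the most abundant gene of that list, was called (joint log2 fold change 3.08, adjusted p = 0.0182 in limma). The part of these cells in the Fcgr4 values was not tested.

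The inhibitory receptor Fcgr2b varied as much within groups as between them. Its pilot levels were 158.2 and 193.3 CPM in midbrain and 188.2 and 326.2 CPM in striatum. The second-cohort levels were 362.6 and 401.3 CPM in midbrain and 292.6 and 431.6 CPM in striatum. The regions overlapped in both cohorts. The joint log2 fold change was -0.19 (SE 0.21, adjusted p = 0.714 in limma), and its interval of -0.65 to 0.27 includes a change in either direction.

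The signalling chain and the kinase gave no regional call. Fcer1g was at 1246 and 1146 CPM in the pilot midbrain and at 1149 and 1511 CPM in the pilot striatum. In the second cohort all 4 libraries lay close together, at 1641 and 1792 CPM in midbrain and 1723 and 1644 CPM in striatum. Its joint log2 fold change was -0.06 (SE 0.13, interval -0.34 to 0.21, adjusted p = 0.857 in limma). Syk was at 141.6 and 125.2 CPM in the pilot midbrain and 151.2 and 178.4 CPM in the pilot striatum, and at 203.1 and 169.1 CPM in the second midbrain and 125.1 and 138.7 CPM in the second striatum. The regions did not overlap in either cohort, with midbrain the lower in the pilot cohort and the higher in the second. The log2 fold changes were -0.35 (SE 0.19) and 0.50 (SE 0.27). Their difference, tested as a region by cohort term, was 0.82 (SE 0.29, unadjusted p = 0.0156, adjusted p = 0.86 in limma). Syk was the 1 member with an unadjusted p under 0.05 for this term, which 5.51% of all genes reached, and 0% of 14053 genes had an adjusted p under 0.05. DESeq2 called 3 genes for this term, and no member.

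Fcgrt, the recycling receptor, had higher values in midbrain in both cohorts and did not pass the test either. It was at 258.7 and 235.6 CPM in the pilot midbrain and 199.6 and 186.9 CPM in the pilot striatum. The second cohort gave 154.8 and 197.7 CPM in midbrain and 138.1 and 133.6 CPM in striatum. The regions did not overlap in either cohort. The joint log2 fold change was 0.35 (SE 0.13, a fold of 1.28), with an unadjusted p of 0.0212 and an adjusted p of 0.245 in limma. The exact permutation test gave p = 0.0556, again the smallest possible. With the unassigned libraries placed by title, the log2 fold change in the second cohort turned to -0.022. Regions did not overlap for 4 of the 7 members in the pilot cohort (42.9% of all genes) and 4 in the second (40.7%). The same direction without overlap in both cohorts held for 2 of the 7 members, Fcgr3 and Fcgrt, and for 15.1% of all genes tested. Border macrophage markers were higher in the same midbrain libraries (summed level of 2270 to 3667 CPM against 914.6 to 1591 CPM), led by Pf4 with a joint log2 fold change of 2.11 (adjusted p = 0.0182 in limma), and their part in the Fcgrt difference was not tested.

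**Figure D2:**
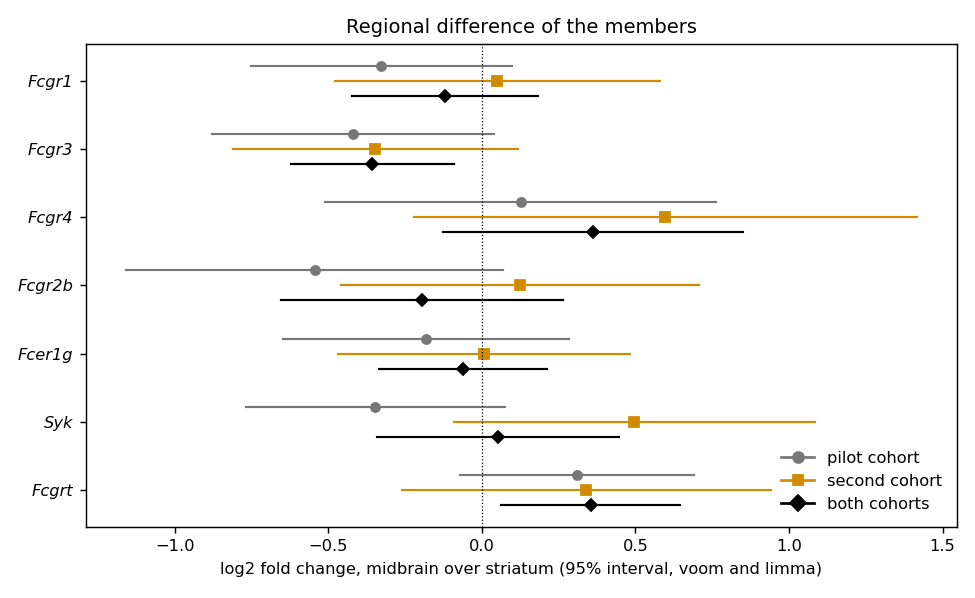
Log2 fold change of midbrain over striatum for each member, with 95% intervals from voom and limma, in the pilot cohort (grey circles), the second cohort (orange squares) and both cohorts with cohort as a covariate (black diamonds). The joint intervals of Fcgr3 (-0.62 to -0.09) and Fcgrt (0.06 to 0.65) exclude 0 before adjustment over all genes, and the Syk estimates lie on opposite sides of 0 in the 2 cohorts.

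The balance of activating over inhibitory receptors was read within each library as the ratio of Fcgr1, Fcgr3 and Fcgr4 counts to Fcgr2b counts, which needs no scaling between libraries. It was 9.91 and 8.52 in the pilot midbrain libraries, and 9.66 and 7.09 in the pilot striatum ones. In the second cohort it was 8.07 and 6.60 in midbrain and 11.05 and 7.97 in striatum. The regions overlapped in both cohorts. The mean log2 difference, midbrain minus striatum, was 0.15 in the pilot cohort and -0.36 in the second, and -0.11 over both (exact permutation p = 0.722). Of all Fc gamma receptor counts, Fcgr3 made up 68.2% to 70.4% in the 4 pilot libraries and 71.0% and 71.5% in the second midbrain. It made up 77.4% (exact 95% binomial interval 76.6 to 78.3) and 76.9% (75.1 to 78.6) in the second striatum, intervals that cover counting error only. The share of Fcgr1 was 17.9% to 21.4% in the pilot libraries and 11.4% to 16.2% in the second, without overlap. Fcgr4 made up 0.575% to 1.73%.

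The gamma chain was also set against the receptors that need it. Fcer1g counts per activating receptor count were 0.794 and 0.696 in the pilot midbrain, 0.632 and 0.653 in the pilot striatum, 0.560 and 0.676 in the second midbrain, and 0.533 and 0.478 in the second striatum. Midbrain was higher without overlap in both cohorts. The mean log2 difference was 0.25, being 0.21 in the pilot cohort and 0.29 in the second, with the smallest permutation p possible (exact p = 0.0556). With Fcgr1 alone as the denominator the difference was 0.05 (exact permutation p = 0.778), and with Fcgr3 alone it was 0.30. With the 2 unassigned libraries added by title it was 0.05 (exact permutation p = 0.767), and with them in the other region 0.36 (exact permutation p = 0.0167). Added libraries allow more labelings, and 0.0167 is the smallest p possible with them. This ratio was added after the values were seen.

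**Figure D3:**
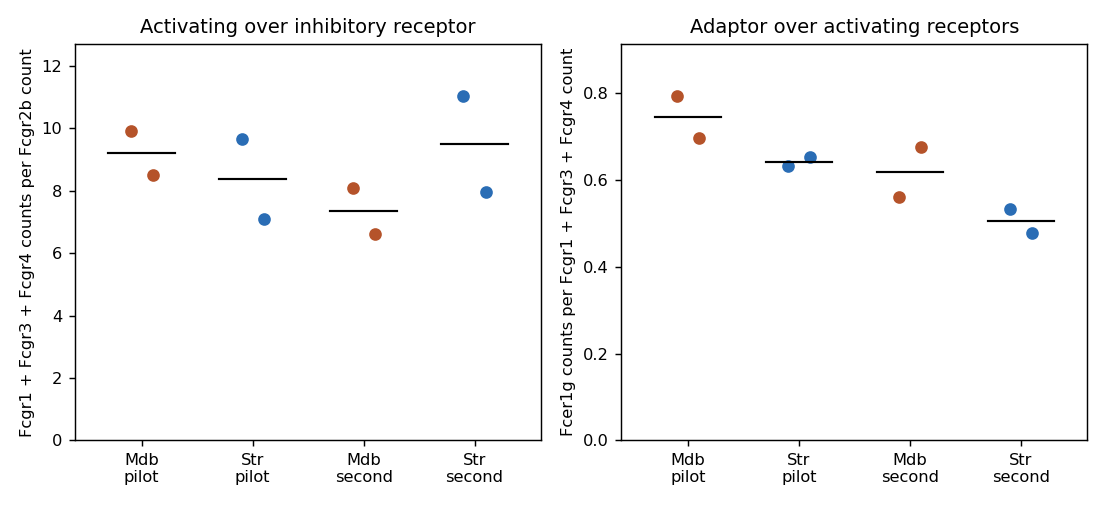
Left, counts of Fcgr1, Fcgr3 and Fcgr4 per count of Fcgr2b in each of the 8 libraries, and right, counts of Fcer1g per count of the 3 activating receptors, on linear axes that start at 0. Points are libraries and bars are means of 2. The regions overlap in the left panel in both cohorts, and the midbrain points lie above the striatum points within each cohort in the right panel.

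Between cohorts, 3 of the 4 Fc gamma receptors and the gamma chain rose, and the neonatal receptor fell. Of the 7 members, 5 passed an adjusted p of 0.05 between the second and the pilot cohort in the same model, where 10.5% of 14053 genes did. Fcgr3, Fcgr4, Fcgr2b and Fcer1g were called higher in the second cohort (4.72% of genes were) and Fcgrt lower (5.82% were). This contrast was added after the values were seen. The study describes independent experiments, each with its own mice. The animals and any other difference between the experiments therefore cannot be told apart.

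Fcgr3 had the smallest p-value, with a log2 fold change of 0.85 (SE 0.12, a fold of 1.80, adjusted p = 0.00511 in limma). All 4 second-cohort libraries lay above all 4 pilot libraries. Fcgr4 rose by 1.12 on the log2 scale (SE 0.22, a fold of 2.17, adjusted p = 0.0135 in limma), and its lowest second-cohort value of 22.26 CPM was close to the highest pilot value of 21.67 CPM. Fcgr2b rose by 0.81 (SE 0.21, adjusted p = 0.0350 in limma), although its striatum libraries overlapped between cohorts. Fcer1g rose by 0.44 (SE 0.13, adjusted p = 0.0463 in limma), with every second-cohort library above every pilot one. Fcgrt fell by 0.50 on the log2 scale (SE 0.13, adjusted p = 0.0386 in limma), without overlap within either region. Fcgr1 was at 0.27 (adjusted p = 0.225 in limma) and Syk at 0.11 (adjusted p = 0.714 in limma), and neither passed.

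These cohort calls differed in how far they depended on single libraries and settings. Fcgr3 was called in each of 18 alternatives, Fcgr4 in 15, Fcgr2b in 12, Fcgrt in 9 and Fcer1g in 6. The number called over all genes changed too, from 1481 of 14053 in the main fit. Without the midbrain pilot library 1 or 2, Fcgr3 was the 1 member called, and 134 of 13552 and 301 of 13531 genes were. Without the striatum pilot library 1, the second midbrain library 1 or the shallow second striatum library 3, Fcgr3 and Fcgr4 were called. Over all genes 787, 1003 and 633 were called in these fits. Fcgrt was added to Fcgr3 and Fcgr4 without the second midbrain library 3 (918 genes over all), and Fcgr2b without the second striatum library 1 (1058 genes). With the counts thinned to the smallest library, Fcgr3 and Fcgr2b were called, as were 568 of 8983 genes. Cohorts that did not overlap in either region, with the same direction, were found for 4 of 7 members (Fcgr3, Fcgr4, Fcer1g and Fcgrt) and for 24.9% of all genes.

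Other cell markers moved with the cohort too. Endothelial markers were lower in the second cohort in 10 of 10 tested genes, 9 of them called, with a median log2 fold change of -2.08 and summed levels of 352.9 to 447.0 CPM in the pilot libraries against 67.8 to 167.6 CPM in the second. Endothelial cells, which a CD11b selection should remove, are a known site of Fcgrt expression. Neutrophil and monocyte medians were higher in the second cohort, at 1.51 and 1.54, with 7 of 12 and 5 of 13 genes called. Homeostatic microglial markers had a median of 0.36 with 3 of 14 called, and all genes a median of -0.02. The part of these cells in the cohort differences of the Fc genes was not tested.

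**Figure D4:**
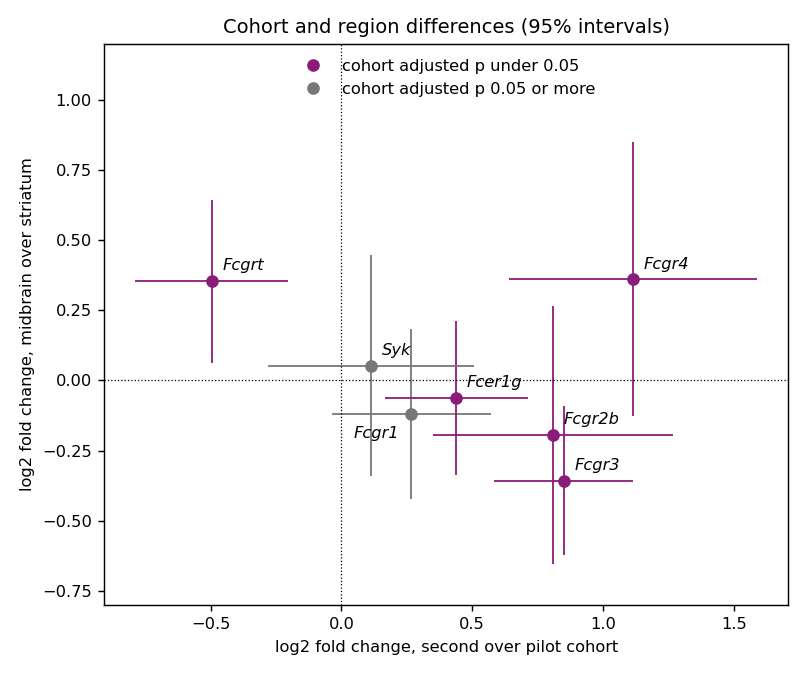
Log2 fold change of the second over the pilot cohort (horizontal) and of midbrain over striatum (vertical) from the same joint fit of 8 libraries, with 95% intervals. Purple marks an adjusted p under 0.05 between cohorts. Fcgr4, Fcgr3, Fcgr2b and Fcer1g lie to the right of 0 and Fcgrt to the left, while the vertical spread stays between -0.36 and 0.36.

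Around the members, 103 genes of the pathway were followed in 7 lists, of which 83 passed the filter. In the joint fit 6 of the 83 were called, 5 higher and 1 lower in midbrain (0.975% and 0.0854% of all genes), and the median log2 fold change over the 83 was 0.01, beside 0.04 over all genes. Among the ITAM-coupled receptors and adaptors 4 of 11 were called. Clec7a, which encodes the beta-glucan receptor Dectin-1 that signals through Syk, was at 28.2 and 30.6 CPM in the pilot midbrain against 14.6 and 12.2 CPM in the striatum, and at 47.4 and 65.0 CPM against 14.9 and 10.3 CPM in the second cohort. The regions did not overlap, and the joint log2 fold change was 1.45 (SE 0.24, adjusted p = 0.0227 in limma). Clec4n, which encodes the gamma-chain-coupled lectin Dectin-2, was higher by 2.08 (SE 0.41, adjusted p = 0.0413 in limma), from 3.26 to 9.43 CPM over the striatum libraries to 12.8 to 76.5 CPM over the midbrain ones. Trem1, a receptor that signals through Tyrobp, was higher by 2.04 (SE 0.43, adjusted p = 0.0460 in limma). Clec4d, a lectin of the same gene cluster as Clec4n, reached 2.61 with an adjusted p of 0.0693 in limma. Clec4n, Clec4d and Trem1 are also expressed by neutrophils and monocytes, whose markers were higher in the same libraries. In the shallowest library Trem1 and Clec4d rested on 2 counts each and Dok2 on 3. No pathway gene was called without the midbrain pilot library 1, the striatum pilot library 1 or either second striatum library, when at most 9 genes of all were called in limma, nor with the unassigned libraries placed by title, when 0 of 13814 were.

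Siglech, which encodes a Tyrobp-coupled lectin typical of microglia, was the 1 pathway gene called lower in midbrain. It was at 671.3 and 851.2 CPM in the pilot midbrain against 1141 and 1419 CPM in the striatum. The second-cohort levels were 904.5 and 1444 CPM against 1962 and 2420 CPM. The joint log2 fold change was -0.84 (SE 0.17, adjusted p = 0.0415 in limma). It is also 1 of the homeostatic markers, all of which were lower in midbrain. Tyrobp itself, the adaptor that parallels Fcer1g, was at -0.13 (adjusted p = 0.674 in limma) and Trem2, its microglial partner, at -0.43 (adjusted p = 0.115 in limma). Between cohorts Tyrobp was called as Fcer1g was, with a log2 fold change of 0.68 (adjusted p = 0.0108 in limma).

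The steps on either side of Syk gave few regional calls. Of the Src-family kinases and their regulator Csk, 0 of 7 were called in the joint fit. Lyn was at -0.24, while Fgr, which neutrophils and monocytes express, was at 1.27 (SE 0.41, adjusted p = 0.176 in limma). In the second cohort alone Fgr was called higher in midbrain (unadjusted p = 0.00313 in limma), as 3.47% of all genes were called. It rested on 5 counts in the shallowest library. Of the 35 Syk effectors, 0 were called in the joint fit, and the list median was 0.01. Btk was at -0.33, Plcg2 at -0.09, Vav1 at -0.09, Card9 at -0.23 and Pik3cg at 0.26. Of 13 genes of inhibitory signalling, 1 was called: Dok2, an adaptor that dampens kinase signalling, was higher in midbrain by 1.55 (SE 0.27, adjusted p = 0.0246 in limma), from 5.14 to 11.1 CPM over striatum to 21.8 to 37.5 CPM over midbrain. Inpp5d, the phosphatase recruited by Fcgr2b, was at -0.37 (adjusted p = 0.320 in limma), Ptpn6 at 0.13 and Cbl at -0.21.

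Of the 13 other Fc receptor genes, 5 passed the filter and 0 were called in the joint fit. Fcrl1, an Fc receptor-like gene named after its values were seen, was lower in midbrain without overlap in both cohorts and was called in the pilot cohort (unadjusted p = 0.00580 in limma). Its joint log2 fold change was -0.87 (SE 0.21, adjusted p = 0.0773 in limma). Fcrls, an Fc receptor-like gene typical of microglia, was at -0.41 (SE 0.12, adjusted p = 0.130 in limma), Fcmr, the IgM receptor, at 0.98 and Trim21, the cytosolic antibody receptor, at 0.56. Fcamr and Pigr had 0 counts in all 8 libraries.

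Of 8 tested genes around Fcgrt, 1 was called. Ehd1, an endosomal recycling protein, was at 113.0 and 88.3 CPM in the pilot midbrain against 42.0 and 45.5 CPM in the striatum, and at 150.2 and 72.6 CPM against 30.5 and 17.1 CPM in the second cohort. Its joint log2 fold change was 1.43 (SE 0.27, adjusted p = 0.0360 in limma). B2m, the light chain of the neonatal receptor, varied within groups: 2655 and 3074 CPM in the pilot midbrain, 2429 and 471.5 CPM in the pilot striatum, 8508 and 6148 CPM in the second midbrain, and 4617 and 8469 CPM in the second striatum. The joint log2 fold change of B2m was 0.83 (SE 0.42, adjusted p = 0.399 in limma), and its cohort difference of 1.93 (adjusted p = 0.0203 in limma) ran opposite to that of Fcgrt.

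Immunoglobulin genes were also read, with 4 of 13 tested and 0 called between regions in the joint fit. The genes tested there were the heavy chains of IgM, IgD and IgA and the kappa light chain. In the second cohort alone 7 were tested and 1 was called, where 3.47% of all genes were. This was the light chain gene Iglc1, named after its values were seen (unadjusted p = 0.00801 in limma). Its means were 2.99 CPM in midbrain and 0 in striatum. No heavy chain gene of IgG, the ligand of the Fc gamma receptors, passed the filter, so these were not tested. They were not absent from every group. Ighg2b and Ighg2c, named after their values were seen, had means of 16.8 CPM in the second midbrain and 33.4 CPM in the second striatum. In the other groups their means were at most 0.231 CPM. Ighm was even over the libraries, at 576.6 to 816.9 CPM. Igkc was higher in midbrain without overlap in both cohorts, with a joint log2 fold change of 1.55 (SE 0.40, adjusted p = 0.0948 in limma). It passed in 7 of its 18 alternatives, edgeR and DESeq2 (adjusted p = 0.0456 and 0.00140) among them, and its adjusted p was highest, at 0.772 in limma, with the unassigned libraries placed by title. Igkc was at 0.756 to 6.65 CPM in the pilot libraries and at 11.99 to 111.4 CPM in the second, a cohort log2 fold change of 4.27 (adjusted p = 0.00187 in limma). Igha, named after its values were seen, had 0 counts in the 4 pilot libraries and 12 to 623 counts in the second-cohort ones.

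**Figure D5:**
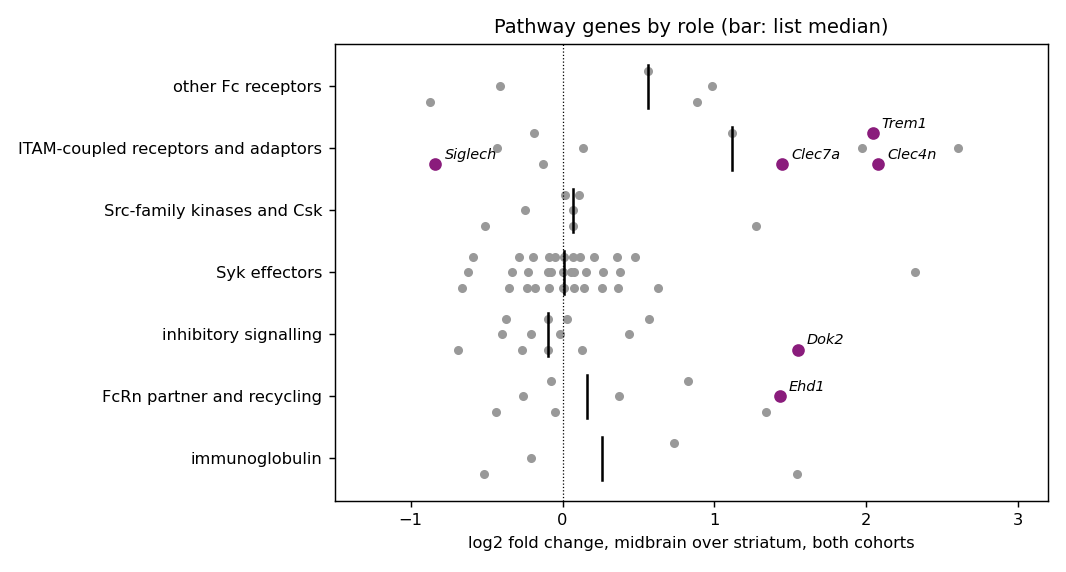
Log2 fold change of midbrain over striatum in the joint fit for the 83 tested pathway genes, 1 row per list. Each point is a gene, purple where the adjusted p was under 0.05, and black bars are list medians. The 6 called genes are named, Siglech at -0.84 and the other 5 between 1.43 and 2.08.

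Genes whose levels over the 8 libraries followed each member most closely were sought among 7037 genes that reached 10 counts in each library. They are given as a description, since the 8 libraries fall into 2 cohorts that differed in level for many genes. Fcgr1 was closest to Clns1a, Manba and Nmt1, Fcgr2b to Ifnar2, Itgb2 and Hps5, and Fcgr3 to Rnase4, Commd2 and Ly86. Fcgr4 was closest to Hcst, Pilra and Tpd52, and Fcer1g to Ufc1, Ctsb and Mtx2. Fcgrt was closest to Gas6, Ppp1r9b and Nrbp1, and Syk to Rab31, Arhgef2 and Arhgap1. The correlation coefficients of log2 CPM ranged from 0.907 for Arhgap1 to 0.991 for Rnase4.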

How the data were processed

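Poly-A RNA of CD11b+ cells was sequenced by the authors with MARS-seq, which reads 3′ ends (the labels name standard Illumina protocols). Per the labels and the study's methods, reads were aligned to GRCm38 with STAR 2.5.3a and counted with featureCounts 1.6.0 on Gencode M17, without strand or multi-mapped reads. The deposited files hold raw read counts of 53715 genes per library, without normalization, and no use of molecular identifiers is stated. The study describes both regions of 5 mice, 2 in its first experiment and 3 in its second, and which libraries share a mouse is not given, so no fit pairs by mouse. The 7 members and all gene lists were chosen with earlier results of these data known.

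Counts were scaled with TMM (edgeR 4.0.16) and fitted with voom and limma 3.58.1 in R 4.3.3 after dropping any gene below 6 counts in over 50% of the libraries fitted. Log2 fold changes are midbrain over striatum unless a cohort is named, and standard errors, intervals and p-values are two-sided from the fit over all genes. Calls needed an unadjusted p under 0.01 within a cohort, as in the study's methods, or a Benjamini-Hochberg adjusted p under 0.05 in the joint fit with cohort as a covariate. Ratios were tested by permuting region labels within cohorts. Shares have exact Clopper-Pearson 95% intervals. Depth was 575709 to 8463782 counts, and a count of 3 was the floor, at most 5.14 CPM.

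Genes named are the members, pathway genes fixed by name (1 of them is not reported here), pathway genes called in the joint fit or in both cohorts, the 3 genes most correlated with each member (log2 CPM, prior count 2) and the most abundant gene of each marker list where a result turns on it. Scripts were tested on simulated data. Alternatives were DESeq2 1.42.0, its size factors, library size alone, edgeR's quasi-likelihood test, no filter, at least 10 counts everywhere, the replicate number as a block, thinning, quality weights, leaving out each library, and the 2 unassigned libraries in either region. The alternatives of the cohort contrast and of the gamma chain ratio were chosen after seeing the data.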

Additional observations from a re-analysis of the deposited data

Results flagged for a closer look

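Syk was picked out because every library of the pilot cohort moved one way between regions and every library of the second cohort the other: the log2 difference, midbrain over striatum, was -0.35 in the pilot cohort and 0.50 in the second. The region by cohort term gave an unadjusted p of 0.0156 and an adjusted p of 0.86 in limma, so the difference did not pass over all genes.

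The 2 libraries outside every comparison also held counts of all 7 genes, above the floor of 3 counts. Their levels, scaled over all 10 libraries, are given as values only. In the library titled Mdb 2, Fcgr1 was at 371.4 CPM, Fcgr2b at 454.3 CPM, Fcgr3 at 2178 CPM, Fcgr4 at 21.02 CPM, Fcer1g at 1046 CPM, Fcgrt at 105.8 CPM and Syk at 140.8 CPM. In the library titled Str 2, Fcgr1 was at 364.7 CPM, Fcgr2b at 304.4 CPM, Fcgr3 at 2039 CPM, Fcgr4 at 53.07 CPM, Fcer1g at 1906 CPM, Fcgrt at 164.9 CPM and Syk at 105.8 CPM.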

How the results depend on the processing

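Over the pilot, second and joint fits, 48 of 49 alternatives called no member between regions. The exception left out the striatum pilot library 1, so that leave-one-out counts in the pilot cohort ranged from 0 to 5. There the lone striatum library is assumed to vary like the midbrain ones. The joint direction held in all 19 alternatives for Fcgr1, Fcgr3, Fcgr4 and Fcgrt, with adjusted p of at least 0.0999 for Fcgr3 and 0.112 for Fcgrt, but the size varied: -0.25 to -0.030 for Fcgr1, -0.43 to -0.28 for Fcgr3, 0.043 to 0.53 for Fcgr4 and 0.14 to 0.43 for Fcgrt. With libraries left out, the joint value ranged from -0.13 to 0.034 for Fcer1g, -0.43 to 0.046 for Fcgr2b and -0.15 to 0.19 for Syk. The pilot value ranged from -0.087 to 0.43 for Fcgr4 and -0.41 to 0.052 for Fcer1g. The second-cohort value ranged from -0.086 to 0.26 for Fcgr1, -0.014 to 0.10 for Fcer1g and -0.21 to 0.38 for Fcgr2b. Other sign changes were of values that did not pass: with library size alone, Fcgr1 at -0.017 and Fcer1g at -0.060 in the second cohort; without a filter, Syk at -0.0042 in the joint fit; with quality weights, Fcer1g at 0.012.

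With the 2 unassigned libraries placed by title, the second-cohort values were -0.0019 for Fcgr1, -0.063 for Fcgr4, -0.32 for Fcer1g and -0.022 for Fcgrt, and Vav1 was at 0.0048 in the joint fit. In the other region, Fcgr2b was at -0.067 in the second cohort, and Fcer1g was at 0.11 and Syk at -0.049 in the joint fit. For the cohort difference of Syk these placements gave -0.017 and -0.0092, thinning gave -0.091, and leaving out libraries -0.0067 to 0.33.

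Pathway calls numbered 6, and 13 with DESeq2, 10 without a filter, 1 with at least 10 counts everywhere (Ehd1), 10 with quality weights, 0 with the unassigned libraries by title and 13 with them in the other region. Calls over all genes changed as well, from 149 to 544, 277, 57, 411, 0 and 442 in the same order. Without single libraries the pathway calls ranged from 0 to 10, and calls over all genes from 0 to 238. The pathway calls were 0 without the midbrain pilot library 1, the striatum pilot library 1 or either second striatum library. Thinning turned Btk to 0.17 and Plcg2 to 0.10. With libraries left out, Btk ranged from -0.72 to 0.14, Plcg2 from -0.26 to 0.088, Card9 from -0.45 to 0.040, and Pik3cg from -0.054 to 0.44. The number of members called between cohorts was 5, and 2 when thinned, 3 with the unassigned libraries by title and 1 to 5 without single libraries. Over all genes this contrast called 1481, and 568 when thinned, 1569 by title and 134 to 2021 without single libraries. Both library size alone and no filter moved the median of all genes in that contrast by over 0.1, to -0.13 and 0.31. The activating to inhibitory ratio of -0.11 was 0.68 for Fcgr4 alone, 0.093 for Fcgr1 alone, 0.040 with the unassigned libraries in the other region and -0.22 to 0.012 without single libraries. The gamma chain ratio of 0.25 was 0.36 (exact permutation p = 0.0167, the smallest possible there) with those libraries in the other region and 0.18 to 0.32 without single libraries. The causes were not tested.

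The study describes both regions of the same mice, but no label ties a title number to a mouse. Same-numbered libraries deviated together with a correlation of -0.027 in the pilot cohort and 0.085 in the second. Members called stayed at 0 in each fit with the replicate number as a block, which need not be the mouse. Pathway calls rose from 6 to 11 with it, while calls over all 14053 genes rose from 149 to 307. The ratios with it were -0.11 and 0.25 (exact permutation p = 0.625 and 0.125). A p of 0.125 is the smallest possible with these blocks, so it cannot be set against the one without them. Depth limits Fcgr4 most, with 13 counts in the shallowest library.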
